A study of Mus musculus with 383 samples.

Results

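The 69 genes described here are the mouse genes whose symbol is Gpr followed by a number alone. They were taken from a table of read counts by that spelling, as 69 of 29779 genes. The tissue was the brainstem's dorsal vagal motor nucleus (DMV), whose neurons send motor fibres to the gut and other viscera. All nuclei came from male Chat-IRES-Cre mice, which make Cre recombinase where choline acetyltransferase is made, on a C57BL/6 background. The mice were given 100 nL of AAV9-DIO-H2b-mCherry, a Cre-dependent virus that marks nuclei red, when 10 weeks old, and brains were dissected 16 days after that, while the design text gives an age of 12 weeks. Dissected pieces were pooled, and nuclei with both mCherry and the DNA dye NucBlue were sorted 1 per well and copied with Smart-seq2 in 22 amplification cycles. The treatment text mentions sections near the SCN, which does not match the labelled tissue, and the labels do not settle which is meant. There is a single group with no untreated or comparison animals, and the labels tie no nucleus to an animal, so the series counts as 1 sample and no test between nuclei was made.

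Most G protein-coupled receptors cross the membrane 7 times and pass an outside signal to G proteins, which open channels or set the level of second messengers such as cyclic AMP. The Gpr symbols were given to receptor-like genes found by sequence before any ligand was known. Ligands have since been reported for some of them, several raise cyclic AMP with no ligand added, and some encode proteins of the Golgi or lysosome that have no known part in G protein signalling. The name is therefore a label and not a function. Vagal motor neurons are known for the receptors through which gut peptides, transmitters and hormones act on them.

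Promoter sequences are given for 4 members on which the results turn, because Gpr158 had the highest share and level and Gpr22, Gpr83 and Gpr153 separated the classes of motor nuclei. Each runs from 250 bases before the RefSeq transcription start to 50 bases after it (GRCm38.p6), 5′ to 3′, with each CpG in capitals. Gpr158 lies at chr2:21367317-21367616 on the plus strand, Gpr22 at chr12:31713834-31714133 on the minus strand, Gpr83 at chr9:14859960-14860259 on the plus strand and Gpr153 at chr4:152274112-152274411 on the plus strand. The windows hold 15 CpGs for Gpr158, 2 for Gpr22, 24 for Gpr83 and 42 for Gpr153.
Gpr158: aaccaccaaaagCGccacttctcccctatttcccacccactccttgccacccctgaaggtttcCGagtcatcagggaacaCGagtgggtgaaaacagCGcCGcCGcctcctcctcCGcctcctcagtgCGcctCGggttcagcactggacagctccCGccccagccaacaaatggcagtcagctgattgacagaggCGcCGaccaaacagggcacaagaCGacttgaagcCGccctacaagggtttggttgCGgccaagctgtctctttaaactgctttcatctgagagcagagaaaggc
Gpr22: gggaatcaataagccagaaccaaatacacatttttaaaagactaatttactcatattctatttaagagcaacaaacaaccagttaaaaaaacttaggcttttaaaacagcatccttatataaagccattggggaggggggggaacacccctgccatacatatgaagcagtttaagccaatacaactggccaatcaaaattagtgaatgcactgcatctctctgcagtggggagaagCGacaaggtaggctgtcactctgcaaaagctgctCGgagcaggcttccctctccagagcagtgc
Gpr83: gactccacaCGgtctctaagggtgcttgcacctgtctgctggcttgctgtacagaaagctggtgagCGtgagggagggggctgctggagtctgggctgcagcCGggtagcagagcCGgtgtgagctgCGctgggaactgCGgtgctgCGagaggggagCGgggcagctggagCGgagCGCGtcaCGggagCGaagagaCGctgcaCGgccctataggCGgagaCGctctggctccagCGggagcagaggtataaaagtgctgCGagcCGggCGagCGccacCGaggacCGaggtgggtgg
Gpr153: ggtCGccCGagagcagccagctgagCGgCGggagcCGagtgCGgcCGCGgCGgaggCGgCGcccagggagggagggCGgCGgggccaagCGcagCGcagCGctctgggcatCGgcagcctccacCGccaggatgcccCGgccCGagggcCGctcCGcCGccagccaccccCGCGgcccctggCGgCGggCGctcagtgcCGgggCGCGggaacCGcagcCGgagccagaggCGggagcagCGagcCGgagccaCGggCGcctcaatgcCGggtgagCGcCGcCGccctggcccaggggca

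Read counts of 383 nuclei were used, and 316 had at least 1000 genes with a read. These 316 had 1590 to 4699420 reads, with a median of 1440075 reads and 11234.5 genes, and the 67 left out had medians of 2328 reads and 344 genes. The tissue label was checked with cholinergic markers. Chat, the acetylcholine-synthesising enzyme, had a read in 304 of the 316 nuclei (96.2%), Slc18a3 in 94.0% and Slc5a7 in 95.6%. Intervals below are exact 95% intervals (Clopper-Pearson for shares, Poisson for summed reads) and cover counting error only, since the libraries carry no molecular identifiers and amplified reads do not count single molecules. Levels are the reads of a gene scaled to the total reads of the nucleus (RPM), and a lower level in RPM cannot be told apart from more RNA of other genes in the nucleus.

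Few of the 69 members were found in nearly all nuclei. A member was called ubiquitous with a read in at least 80% of the 316 nuclei, intermediate in 20% to under 80%, and selective below 20%. By these limits 6 were ubiquitous (8.70%, against 19.9% of all genes in the table), 32 were intermediate (46.4%, against 32.1%) and 31 were selective (44.9%, against 47.9%). Every member had a read in at least 2 nuclei, while 0.0201% of all genes had none. The median share was 23.1% for the members and 22.8% for all genes. The members thus differed from the table in having fewer ubiquitous and more intermediate genes, with a median beside that of all genes. All 69 members are protein-coding, while 20909 of the 29779 genes were matched as protein-coding, so the lists differ in gene type. Beside protein-coding genes of like span, the members' median was lower in the longer spans and higher in the shorter ones, as given below.

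**Figure D1:**
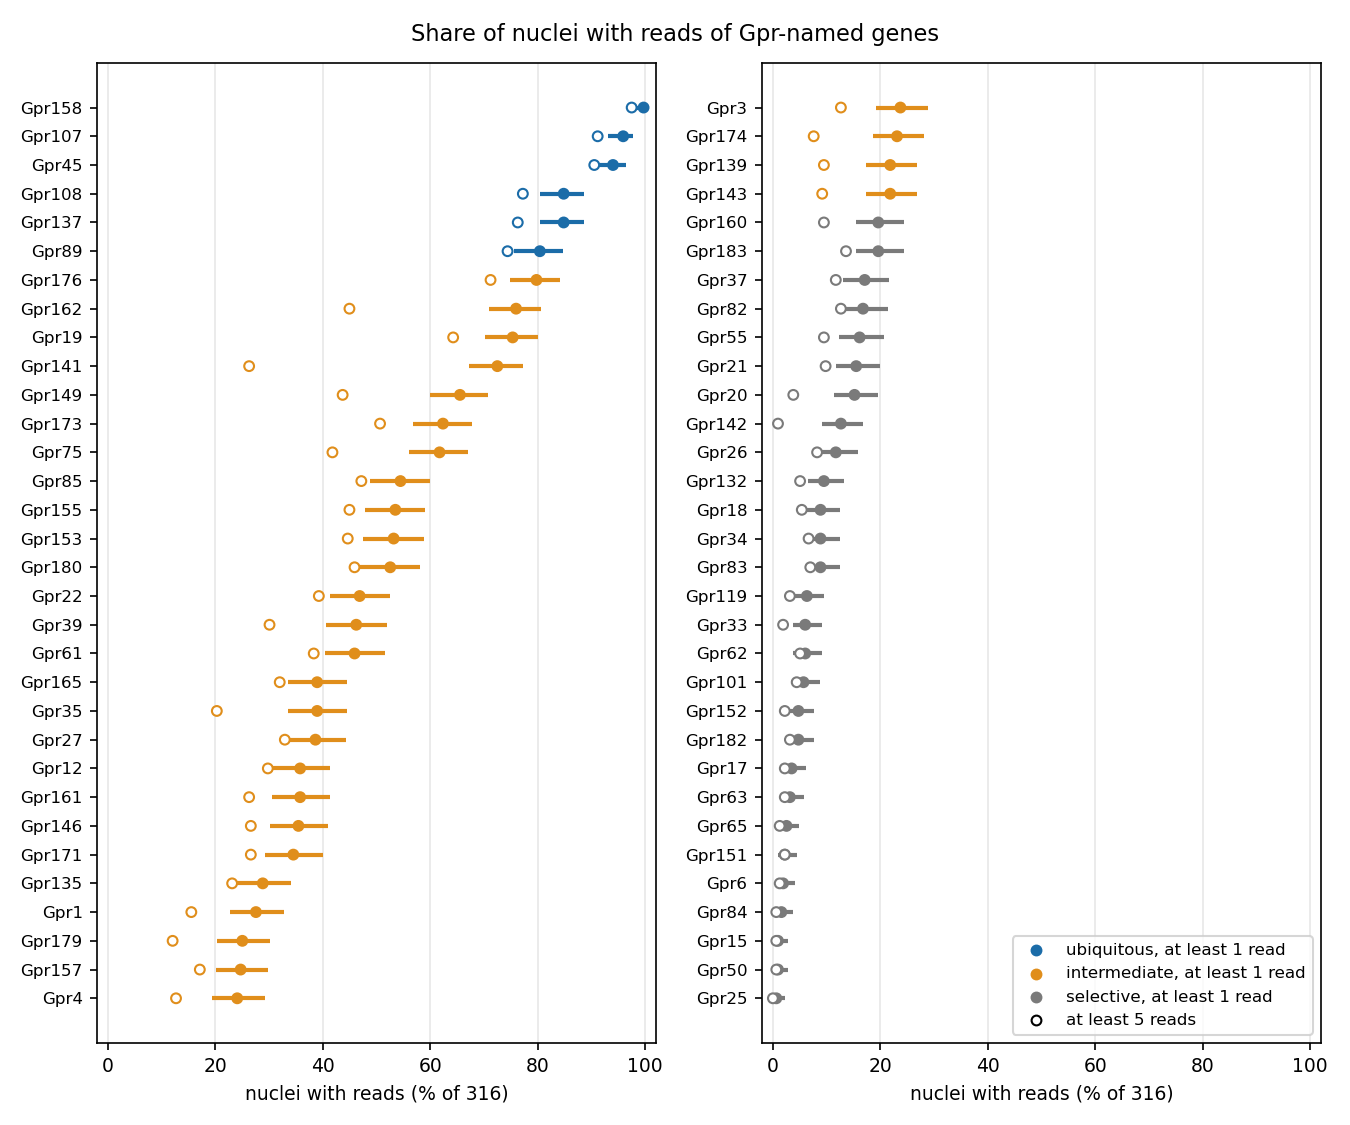
Share of the 316 nuclei with reads (x axis, %) for Gpr-named genes, as filled points for at least 1 read with exact 95% intervals and open points for at least 5 reads, coloured by share class. The 6 ubiquitous genes run from Gpr158 at 99.7% to Gpr89 at 80.4%, and the open points fall furthest below the filled ones for Gpr141 and Gpr162.

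Gpr158, a class C receptor whose protein binds the regulator Rgs7 with the Gβ subunit Gnb5 and for which glycine has been reported as a ligand, had a read in 315 of 316 nuclei (99.7%, 98.2 to 100.0). Its level was 0 RPM in the lowest nucleus, 549.9 RPM in the median and 2878 RPM in the highest. It also kept the highest share when at least 5 reads were required, at 97.5%. Per kilobase of exon its summed level was 77.1 RPM, against 14.5 RPM per kilobase for Gpr176, 14.1 for Gpr45 and 12.8 for Gpr108, the next in order. Whether reads in introns were counted is not given, and if they were, this order need not hold. The span of Gpr108, for example, is 13.8 kb, far shorter than that of Gpr158. Its gene spans 463.0 kb of chromosome 2 (21367542 to 21830547, plus strand, GRCm38), and the antisense gene Gm13327 covers 7.36% of its exon bases. Its reported partner Rgs7 had a read in 99.7% of nuclei at a summed level of 1270 RPM, and Gnb5 in 82.9% at 51.1 RPM.

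Of the other 5 ubiquitous members, 4 encode proteins of the Golgi or lysosome rather than cell surface receptors. Gpr107, a Golgi protein of vesicle trafficking, had a read in 95.9% of nuclei (93.1 to 97.8), with 0, 50.9 and 338.7 RPM in the lowest, median and highest nucleus. Its relative Gpr108 had a read in 84.8% (80.4 to 88.6), with 0, 28.6 and 275.8 RPM. Gpr137, a lysosomal membrane protein, had the same share with 0, 20.0 and 1213 RPM. Gpr89, a Golgi anion channel that regulates the acidity of that organelle, had a read in 80.4% (75.6 to 84.6), with 0, 29.2 and 444.7 RPM. The remaining ubiquitous member was Gpr45, an orphan of the rhodopsin class, in 94.0% of nuclei (90.8 to 96.3) at 0, 77.0 and 417.5 RPM. Gpr63, its closest relative by sequence, was found in 10 nuclei (3.16%, 1.53 to 5.74), so the pair stood at opposite ends of the shares.

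The members nearest to the limits were close to each other. Just below the ubiquitous limit was Gpr176, a receptor coupled to the G protein Gz and known from the circadian clock, with 79.7% (74.9 to 84.0), against 80.4% for Gpr89. The gene of that G protein, Gnaz, had a read in 84.2% of nuclei. Around the lower limit, Gpr139 and Gpr143 stood at 21.8% and Gpr160 and Gpr183 at 19.6%. The intervals of these neighbours overlapped, so their class rests on the limit alone.

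The next shares belonged to orphans of several classes. Gpr162 had a read in 75.9% of nuclei (70.8 to 80.6) with a median of 2.57 RPM and a highest value of 50.3 RPM. Gpr19 stood at 75.3% (70.2 to 80.0), with a median of 12.1 RPM and a highest value of 234.4 RPM. Gpr179, a class C member known from retinal bipolar cells, was found in 25.0% (20.3 to 30.2), far below Gpr158 of the same class.

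The receptors that raise cyclic AMP without an added ligand, or are reported to, were not found in most nuclei. None of this group of 8 was ubiquitous, 4 were intermediate and 4 selective, with shares of 1.90% to 45.9%. Gpr61 led with 45.9% (40.3 to 51.6), and Gpr12, the most frequent of the closely related Gpr3, Gpr6 and Gpr12, had 35.8% (30.5 to 41.3). Gpr3, known for holding oocytes in meiotic arrest, was found in 23.7% (19.2 to 28.8). Gpr6, known from the striatum, was found in 6 nuclei (1.90%, 0.700 to 4.09). Gpr161, a receptor of the primary cilium that restrains Hedgehog signalling, stood at 35.8%, Gpr26 at 11.7%, Gpr62 at 6.01% and Gpr101, linked to growth hormone excess, at 5.70%.

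All 3 members of the SREB group, receptors of the brain conserved across vertebrates, were intermediate. Gpr173 had a read in 62.3% of nuclei (56.7 to 67.7), Gpr85 in 54.4% (48.8 to 60.0) and Gpr27 in 38.6% (33.2 to 44.2). Their medians were 4.54, 1.84 and 0 RPM in the same order. Gpr4, a sensor of protons, had 24.1%, and its relatives Gpr132 and Gpr65 had 9.49% and 2.53%.

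Members with reported peptide, amino acid or metal ligands spread over both lower classes, with 3 of 6 intermediate and 3 selective. Gpr39, a receptor activated by zinc, was found in 46.2% (40.6 to 51.9), Gpr171, for which the proSAAS peptide BigLEN has been reported, in 34.5% (29.3 to 40.0), and Gpr83, reported to bind the proSAAS peptide PEN, in 8.86% (5.97 to 12.6). Gpr37, reported to bind prosaposin, was found in 17.1%, and Gpr139 and Gpr142, relatives that respond to aromatic amino acids, in 21.8% and 12.7%. Pcsk1n, the proSAAS precursor gene, had a read in 98.1% of nuclei and Psap, the prosaposin gene, in 99.1%. Slc30a3, which loads zinc into synaptic vesicles, was found in 13.3%, and Rarres2, the chemerin gene reported for Gpr1, in 1.58%, against 27.5% for Gpr1 itself.

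Members known from lipid or sterol ligands and immune cells were mostly selective, 7 of 9, with Gpr35 at 38.9% and Gpr174 at 23.1% as the intermediate ones. Gpr183, which binds oxysterols, stood at 19.6%, Gpr55 at 16.1%, Gpr18 and Gpr34 at 8.86%, Gpr119, known from gut endocrine cells and pancreatic islets, at 6.33%, Gpr17 at 3.48% and Gpr84, which responds to medium-chain fatty acids, at 1.58%. Of the oxysterol enzymes, Ch25h had a read in 0.633% of nuclei and Cyp7b1 in 65.8%. Gpr25, with a read in 2 nuclei (0.633%, 0.0767 to 2.27), stood at the low end of the shares.

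For some members a share of nuclei rested on very few reads. In 15 of the 69, at least 50% of the nuclei with a read had 1 to 4 reads. Gpr141, a receptor known from myeloid cells, fell to 26.3% of nuclei when at least 5 reads were required, against 72.5% with at least 1. Gpr162 fell to 44.9%, against 75.9%, and Gpr142 to 0.949%, against 12.7%. Gpr151, known from the habenula, was the opposite case, since all 7 nuclei with a read had at least 5, with levels up to 219.6 RPM. With at least 5 reads the ubiquitous members were 3, namely Gpr158, Gpr107 and Gpr45.

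Levels within a member were uneven across nuclei. The median nucleus had a level above 0 for 18 of the 69 members. The 32 nuclei with the highest level of a member, 10% of all nuclei rounded up, held 21.9% of the summed level of Gpr158, 28.0% for Gpr45 and 29.7% for Gpr107, the lowest 3 of the 69. They held at least 50% of the summed level for 56 members, of which the 21 with shares under 10% must reach 100%. Beyond those 21, Gpr26 had 99.5% of its level in these nuclei, Gpr55 97.3%, Gpr20 97.0% and Gpr21 96.5%. They had reads in 37, 51, 48 and 49 nuclei in the same order, so few nuclei beyond the 32 could add to their levels. This measure was not computed for all genes. The highest single nucleus had 107.3 RPM of Gpr26, 68.9 of Gpr55, 41.0 of Gpr20 and 107.1 of Gpr21.

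**Figure D2:**
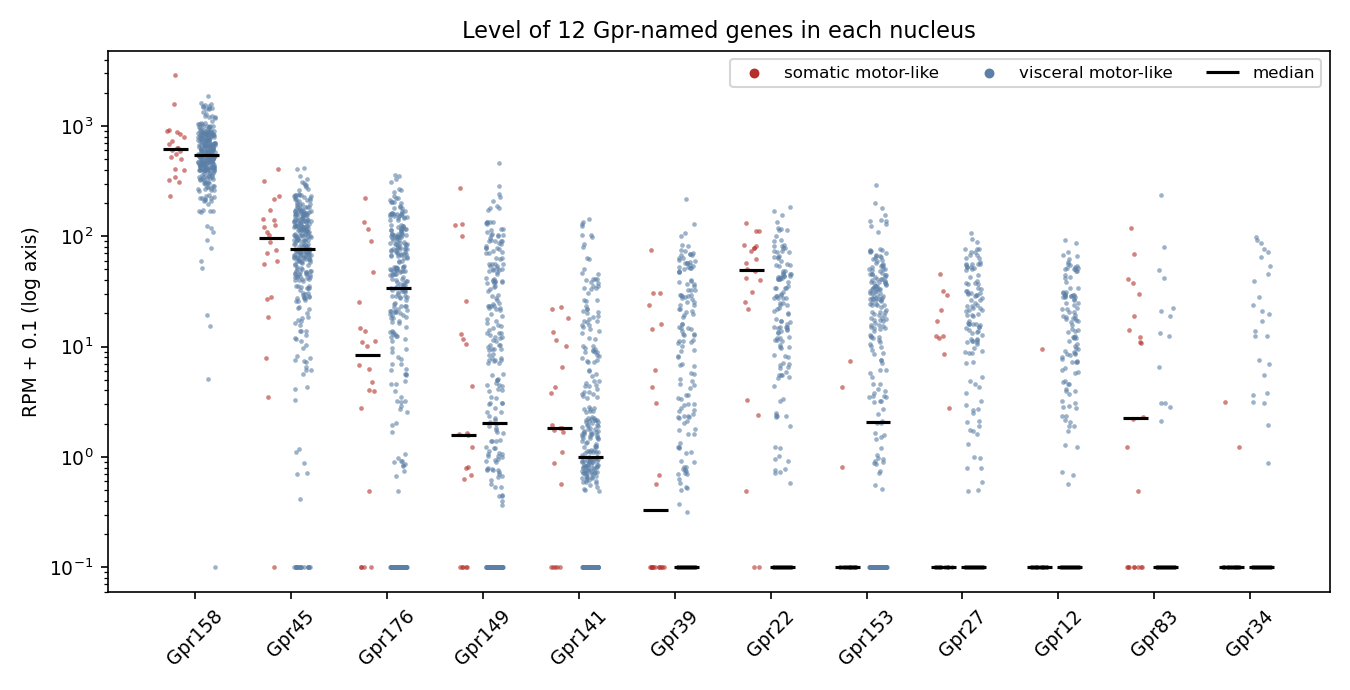
Level of 12 Gpr-named genes (y axis, RPM + 0.1, log axis) in each nucleus, with somatic motor-like nuclei in red left of visceral motor-like nuclei in blue and black bars at the medians. Gpr158 lies above the other members in nearly all nuclei of both classes, and many nuclei of the selective members lie on the line of no reads.

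A nucleus had reads of 0 to 42 different members, with a median of 23. After thinning every nucleus to 500000 reads, which left out 21 of the 316 as too shallow, the number was 9 to 38 with a median of 20. Across nuclei the number had a Spearman correlation of 0.75 with the number of all genes detected and of 0.05 with the reads, as a description over 316 nuclei. The nucleus with no member had 9299 reads. The labels number the nuclei but name no plate; in 4 runs of 96 numbers, which held 74 to 82 of the nuclei used, the share of Gpr61 was 47.5%, 41.2%, 62.2% and 34.1%, the widest range of any member, and that of Gpr21 was 28.8%, 6.25%, 14.9% and 12.2%.

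Next, somatic and visceral motor-like nuclei were compared. Clusters were built without the members and 39 genes of G protein signalling, and 22 nuclei formed a cluster with more somatic than visceral motor markers (mean share over the list 43.9% for somatic and 12.7% for visceral markers), while 294 nuclei fell into visceral motor-like clusters. Somatic motor neurons, such as those of the neighbouring hypoglossal nucleus, drive skeletal muscle. The median depth was 1646060 reads in somatic and 1431009 reads in visceral motor-like nuclei, and the comparison used 22 somatic and 273 visceral motor-like nuclei thinned to 500000 reads. A gene was called where shares differed by at least 40 percentage points with intervals apart. Of the 69 members, 2 were called higher in somatic motor-like nuclei, against 0.353% of all genes, and 1 lower, against 0.437%. The members' count is small, and the median difference over all 69 was -0.733 points.

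Gpr83 had a read in 11 of the 22 nuclei of the somatic class (50.0%, 28.2 to 71.8), against 14 of 273 visceral ones (5.13%, 2.83 to 8.45). Its level was 0, 2.15 and 119.8 RPM in the lowest, median and highest somatic motor-like nucleus, and 0, 0 and 235.1 RPM in visceral ones, so the nuclei overlapped and the highest value was a visceral one. The mean level was 16.8 RPM in somatic and 1.73 RPM in visceral motor-like nuclei, a log2 ratio of 3.28.

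Gpr22, an orphan found in brain and heart, had a read in 19 of the 22 nuclei of the somatic class (86.4%, 65.1 to 97.1), against 42.1% of visceral ones (36.2 to 48.2). Levels were 0, 49.2 and 130.8 RPM in somatic and 0, 0 and 185.2 RPM in visceral motor-like nuclei. The mean was 51.5 RPM in somatic and 15.3 RPM in visceral motor-like nuclei, a log2 ratio of 1.75. All 11 somatic motor-like nuclei with Gpr83 also had Gpr22, and 3 of the 22 had neither. Gpr22 lies inside the span of Cog5 on the opposite strand, and without a stated use of strand, reads from the pair may not be separable. Cog5 had a read in 98.1% of the 316 nuclei, so very few lacked one. Gpr22 was found in 47.1% of the nuclei with and 33.3% of those few without a Cog5 read. The Spearman correlation of their levels across nuclei was -0.06, as a description.

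Gpr153, an orphan of the rhodopsin class, differed the other way, with 2 of 22 somatic motor-like nuclei (9.09%, 1.12 to 29.2) against 53.1% of visceral ones (47.0 to 59.2). Levels were 0, 0 and 7.34 RPM in somatic motor-like nuclei and 0, 1.98 and 291.5 RPM in visceral ones. The mean was 0.555 RPM in somatic and 19.2 RPM in visceral motor-like nuclei, a log2 ratio of -5.12. In each of the 4 runs of numbers, with 3 to 7 nuclei of the somatic class apiece, Gpr83 and Gpr22 had the higher and Gpr153 the lower share in somatic motor-like nuclei. The calls were sensitive to other choices: Gpr83 was not called when at least 5 reads were required, and Gpr22 and Gpr153 were not called with nuclei of at least 2000 genes, where their differences were 36.7 and -36.1 points.

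Several other members differed by less than the limit or with overlapping intervals. Gpr12 was found in 4.55% of somatic and 37.0% of visceral motor-like nuclei, with intervals apart but a difference under 40 points. Its relative Gpr3 went the other way, with 45.5% of somatic and 16.8% of visceral motor-like nuclei. Gpr19 had 54.5% in somatic and 75.8% in visceral motor-like nuclei. Among the 39 signalling genes, 2 were called higher in somatic motor-like nuclei and 1 lower. The higher ones were the calcium-stimulated adenylyl cyclases Adcy8 (100% in somatic and 44.7% in visceral motor-like nuclei) and Adcy1 (100% and 45.8%), and the lower one was Rgs9, which speeds the turning off of G proteins (40.9% and 96.0%). Markers of other cell types had reads in both classes, with high values in some visceral motor-like nuclei. The summed level of the 5 astrocyte markers, for example, had a median of 3.10 RPM in somatic (0 to 232.2) and 4.20 RPM in visceral motor-like nuclei (0 to 25056), and that of the 6 oligodendrocyte markers 29.7 RPM (0 to 186.2) and 71.0 RPM (0 to 2253). Their part in the differences was not tested.

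**Figure D3:**
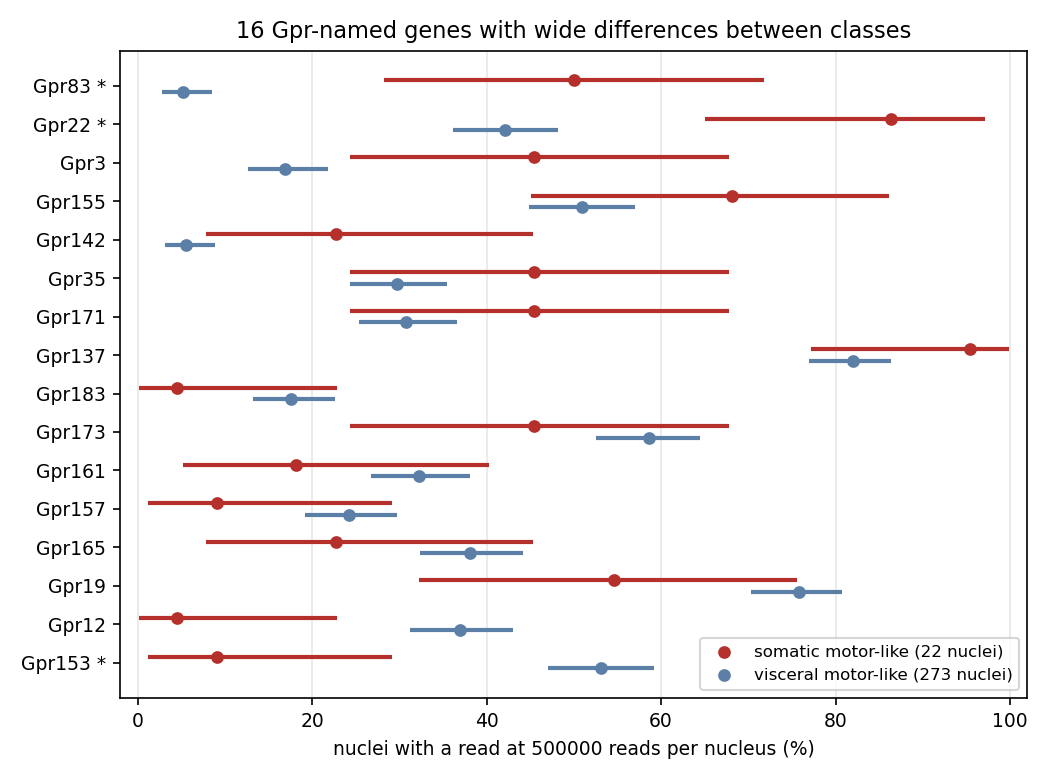
Share of nuclei with a read at 500000 reads per nucleus (x axis, %) for 16 Gpr-named genes with wide differences, in 22 somatic (red) and 273 visceral (blue) motor-like nuclei, with exact 95% intervals and asterisks on the called genes. Gpr83 and Gpr22 lie further right in somatic and Gpr153 in visceral motor-like nuclei.

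Visceral motor-like nuclei were then clustered again without the same genes, which gave 10 clusters of 13 to 48 nuclei, numbered by size. Between the cluster with the highest and that with the lowest share, 11 of the 69 members differed by at least 40 points with intervals apart, a share of 15.9%, against 15.9% of all genes. The shares were equal, but they cannot tell whether members vary among clusters as often as other genes. The members were left out when the clusters were built, while all genes include the variable genes that built them. The members also had fewer ubiquitous and more intermediate genes than the table, so the lists may differ in how many genes could reach 40 points. The 11 included all 3 SREB receptors, and 3 of the 11 passed under each of the 11 settings run, namely Gpr27, Gpr149 and Gpr165. The share of all genes that passed under each setting was not computed, so these 3 have no background beside them.

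Gpr27 differed most, with a read in 73.8% of 42 nuclei of cluster 1 (58.0 to 86.1) and in 1 of 30 nuclei of cluster 5 (3.33%, 0.0844 to 17.2). Its summed level was 19.7 RPM in cluster 1 and 3.23 RPM in cluster 5. Clusters 1 and 2, at 73.8% and 60.5%, stood above the other 8, which ran from 36.4% in cluster 6 to 3.33%. Its SREB relatives followed other orders. Gpr173 was highest in cluster 10 (84.6%, 54.6 to 98.1) and lowest in cluster 7 (26.3%, 9.15 to 51.2), and Gpr85 was highest in cluster 7 (73.7%, 48.8 to 90.9) and lowest in cluster 5 (26.7%, 12.3 to 45.9).

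Gpr149, an orphan of the rhodopsin class, had a read in 17 of 19 nuclei of cluster 7 (89.5%, 66.9 to 98.7) and in 23.7% of 38 nuclei of cluster 2 (11.4 to 40.2). Its summed level was 65.4 RPM in cluster 7 and 8.89 RPM in cluster 2. Cluster 7 was the one in which Cck, the gene of the peptide cholecystokinin, had a read in 73.7% of nuclei and its receptor gene Cckar in 100%. Gpr165, another orphan, was also highest there, with 63.2% (38.4 to 83.7), against 13.3% in cluster 5 (3.76 to 30.7), at summed levels of 12.0 and 4.53 RPM. Cluster 4 followed cluster 7 for Gpr149 at 84.4%, and clusters 1 and 2 followed it for Gpr165 at 57.1% and 55.3%, so neither gene was confined to it.

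The other called members had their highest shares in 4 different clusters. Gpr39, the zinc receptor, was highest in cluster 5 (66.7%, 47.2 to 82.7) and lowest in cluster 6 (13.6%, 2.91 to 34.9), at summed levels of 25.0 and 1.04 RPM, and Gpr141 ranged from 92.3% in cluster 10 to 35.0% in cluster 8. Gpr61 was found in 57.9% of cluster 2 and 13.3% of cluster 5, and Gpr180 in 68.4% and 26.7% of the same clusters. Gpr146 was found in 50.0% of cluster 1 and 10.0% of cluster 8, and Gpr179 in 43.3% of cluster 5 and 0 of 20 nuclei of cluster 9, with an upper interval limit of 16.8%. Gpr158 was not called in any setting, and neither were Gpr107 and Gpr45. Their lowest cluster shares in the main setting were 100%, 92.3% and 84.6% in that order. With shares so near the upper end, the lack of a call says nothing of their levels across clusters.

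Cluster 5 was the lowest for 5 of the 11 called members and the highest for 2, and its markers differed from those of the other clusters. The marker levels in RPM below are set against the other clusters pooled. Chat had a read in 80.0% of its nuclei, against 97.3% to 100% in the other clusters. The mean share of somatic motor markers was 17.8% in cluster 5, against 2.38% to 7.69% in the other clusters. That of visceral motor markers was 43.3% in cluster 5. Of the 14 visceral motor-like nuclei with Gpr83, 6 lay in cluster 5. The 5 astrocyte markers were all present, with a summed level of 0, 64.2 and 8173 RPM in its lowest, median and highest nucleus, against 0, 2.59 and 25056 RPM in the other clusters. The 6 microglia markers, all present, had a median of 11.6 RPM (0 to 488.0), against 0.649 RPM (0 to 145.8). For the 5 vascular markers, of which Cldn5 was at 0 in cluster 5, the median was 19.5 RPM (0 to 252.1), against 3.60 RPM (0 to 180.6). Lists of other neurons were also higher in cluster 5, with medians of 12.4 RPM against 0 for glutamatergic, 16.7 against 5.68 RPM for inhibitory and 11.2 against 0.566 RPM for serotonergic markers. So were those of ependymal cells (35.7 against 1.76 RPM), oligodendrocyte precursors (7.54 against 0.610 RPM) and immune cells (21.6 against 0.885 RPM), while oligodendrocyte markers were lower, with 58.6 RPM in cluster 5 and 71.4 RPM in the other clusters. Cluster 4 came close for some lists. Its mean marker share was 29.7% for glutamatergic markers, against 20.8% in cluster 5. It was 25.6% against 28.0% for inhibitory and 26.25% against 27.3% for immune markers. For astrocyte markers it was 26.9% against 44.0%. Of the lists named here, all but the glutamatergic and oligodendrocyte ones were lower in cluster 4. Without cluster 5, 6 members were called, against 10.9% of all genes. The part of these markers in the result was not tested.

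**Figure D4:**
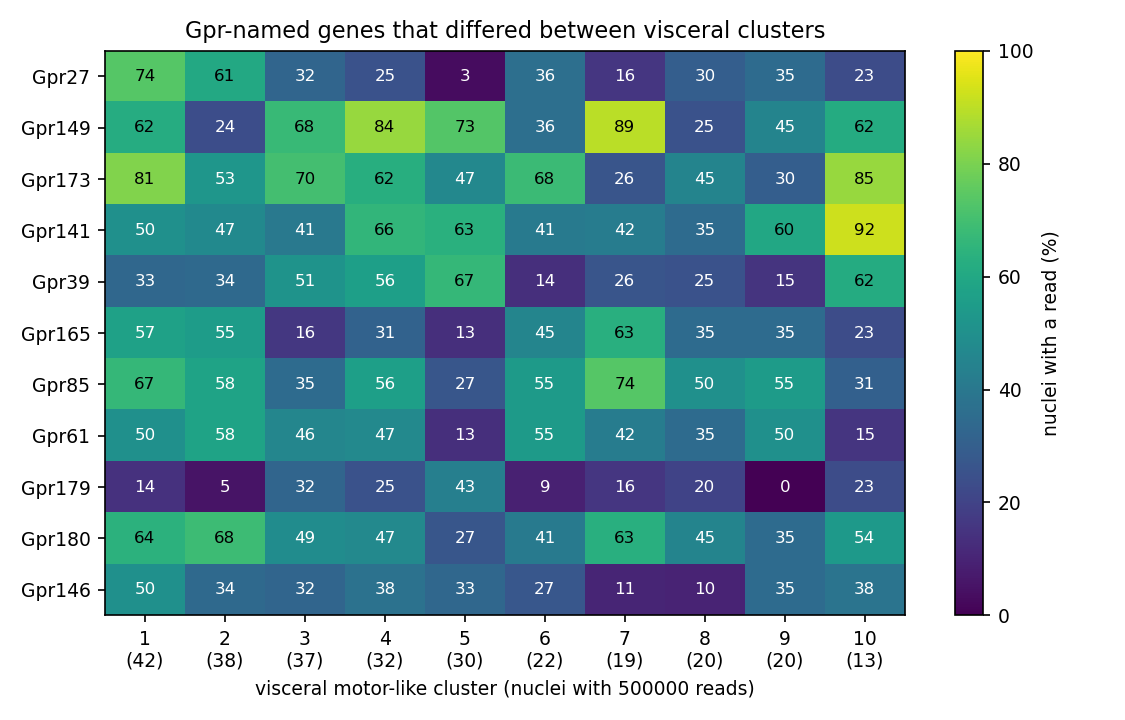
Share of nuclei with a read at 500000 reads (colour, %) of the 11 called Gpr-named genes in the 10 visceral motor-like clusters (x axis, with the number of nuclei). Gpr27 is high in clusters 1 and 2, Gpr149 and Gpr165 are highest in cluster 7, and cluster 5 holds the lowest value of 5 genes.

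Of the 39 signalling genes, 7 were called between the clusters (17.9%), among them the G protein subunit genes Gna14, with 80.0% in cluster 5 and 20.0% in cluster 9, Gnat3, with 50.0% in cluster 5 and 0 of 19 nuclei in cluster 7, and Gnb5, with 95.2% in cluster 1 and 38.5% in cluster 10. The others were Adcy6, Grk4, Grk6 and Arrb2.

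No member was called when visceral motor-like nuclei were split by a read of Cck, Pdyn or Grp, the genes of the peptides cholecystokinin, dynorphin and gastrin-releasing peptide. All genes passed the same limit in 0.0604% (higher) and 0.0537% (lower) for Cck, 0.0437% and 0 for Pdyn, and 0.00336% and 0 for Grp. The 23, 42 and 30 nuclei with a read leave wide intervals. Gpr149 came nearest, in 87.0% of nuclei with Cck (66.4 to 97.2) and 54.4% of those without (48.0 to 60.7), at 57.6 and 22.5 RPM. Gpr146 went the other way, with 8.70% of nuclei with Cck (1.07 to 28.0) and 35.2% of those without (29.3 to 41.5), and so did Gpr173, with 34.8% and 60.8%. Many of the nuclei with Cck lie in cluster 7, where Cck had a read in 73.7% of 19 nuclei. Gpr149 stood at 89.5% there, Gpr146 at 10.5% and Gpr173 at 26.3%, so the split partly repeats the cluster result. Gpr39 was found in 57.1% of nuclei with Pdyn and 36.4% of those without, and Gpr173 in 76.7% of nuclei with Grp and 56.4% of those without.

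Correlations between members across nuclei were weak. Over the 273 visceral motor-like nuclei thinned to 500000 reads, the 496 pairs of the 32 intermediate members had Spearman correlations of -0.20 to 0.31, with a median of 0.02. The pair Gpr39 and Gpr179 was the highest at 0.31 and the sole pair to reach 0.3. The nuclei share library depth and amplification, and in sparse counts such values are a description.

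Members known from glia or immune cells were set beside markers of those cells. Gpr17, known from oligodendrocyte precursors, had a read in 11 nuclei, in which 6 precursor markers summed to a median of 6.78 RPM (0 to 370.1), against 0.664 RPM (0 to 645.2) in the 305 without. Gpr34, known from microglia, had a read in 28 nuclei, in which 6 microglia markers summed to a median of 0.587 RPM (0 to 74.7), against 0.790 RPM (0 to 488.0) in the others, and Chat had a read in all 28. Gpr84 was found in 5 nuclei, with a microglia marker median of 4.76 RPM, against 0.776 RPM without. Gpr174 had a read in 73 nuclei, in which 5 immune markers had a median of 6.80 RPM (0 to 189.4), against 0.808 RPM (0 to 414.9), and for Gpr132, in 30 nuclei, the median was 10.5 RPM (0 to 124.8), against 1.06 RPM (0 to 414.9). For Gpr65, in 8 nuclei, it was 8.81 RPM (0 to 79.1), against 1.59 RPM (0 to 414.9). The medians lay close together for Gpr183 (1.94 RPM with and 1.26 without), Gpr171 (1.62 and 1.39 RPM) and Gpr18 (1.88 and 1.39 RPM). The median number of immune markers detected was 1 of 5 in the nuclei with and in those without Gpr174, and likewise for Gpr132, Gpr183, Gpr171 and Gpr18, while for Gpr65 it was 0.5 with and 1 without. For Gpr34 the microglia marker median was lower in the nuclei with a read than in those without. That median was 24.8 RPM with and 0.768 RPM without Gpr65, and 0.769 and 0.783 RPM for Gpr132. Chat had a read in 75.0% of nuclei with Gpr65 and 96.8% of those without. The values were 90.0% and 96.9% for Gpr132, and 90.9% and 96.4% for Gpr17. For the other members of this paragraph, Chat had a read in 98.6% to 100% of nuclei with the member. The part of other cells in these reads was not tested.

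Members with longer genes had higher shares. All 69 matched protein-coding genes of GENCODE M21 on GRCm38. The median gene span was 51.8 kb for the 6 ubiquitous, 22.5 kb for the 32 intermediate and 6.50 kb for the 31 selective members. The Spearman correlation of share with span was 0.53 over the 69 members and 0.63 over 20909 protein-coding genes of the table, across genes, which are not independent replicates. In spans of 30 to 100 kb the median share was 46.2% for 16 members and 73.1% for 5085 protein-coding genes. It was 22.9% for 18 members and 41.1% for 6366 genes in spans of 10 to 30 kb. In spans of 100 to 1000 kb it was 72.9% for 2 members and 93.0% for 2402 genes. Members had the higher median in short spans. It was 12.7% for 17 members and 9.18% for 3522 genes in 5 to 10 kb. In 1 to 5 kb it was 7.44% for 16 members and 3.80% for 3075 genes. The part of length in the classes was not tested.

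**Figure D5:**
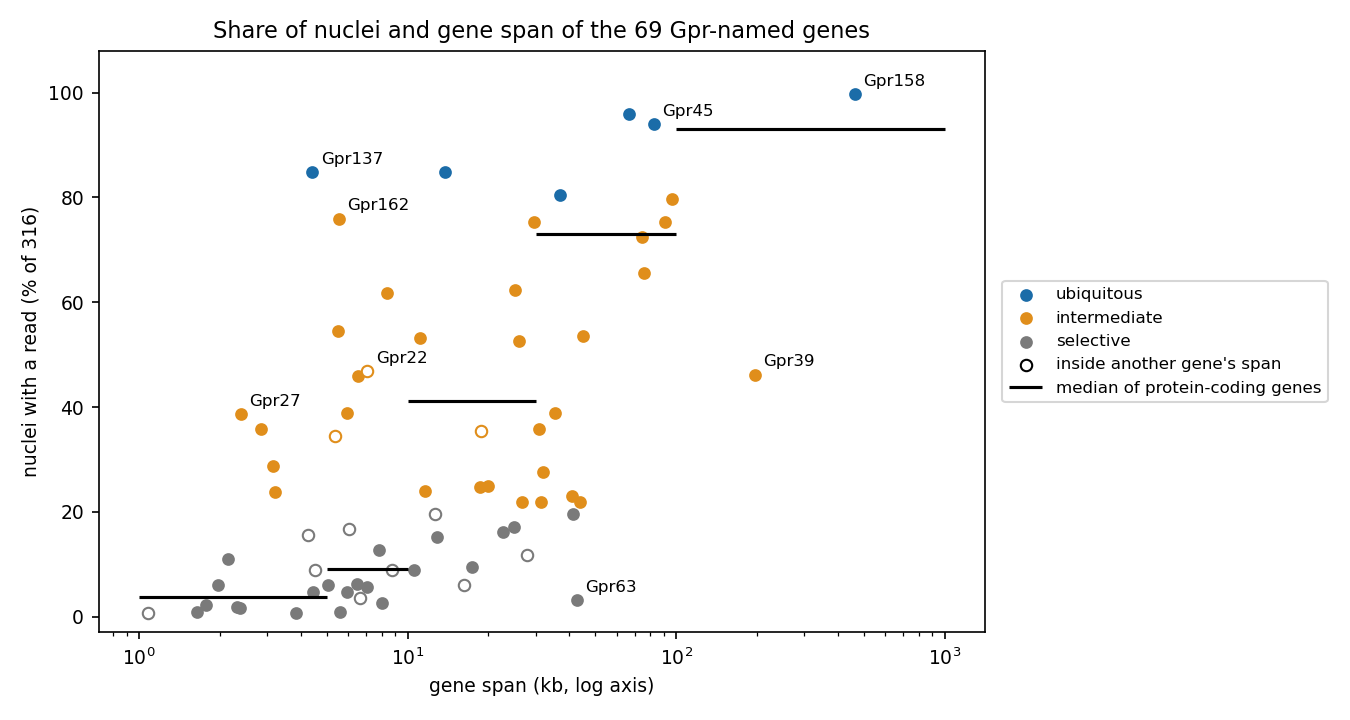
Share of the 316 nuclei with a read (y axis, %) against gene span (x axis, kb, log axis) for the 69 Gpr-named genes, coloured by share class, with open points for the 12 inside another gene's span and black bars at the median of protein-coding genes in each range of span. Shares are higher for longer genes, and most members between 30 and 100 kb lie below the bar.

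Other genes overlap many members. Of the 69, 31 overlap another annotated gene, 21 of these in exons, and none by 50% or more of its exon bases. The 12 members inside another gene's span include Gpr34 and Gpr82 in Cask, Gpr171 in Med12l, and Gpr18 and Gpr183 in Ubac2, all on the opposite strand from their host, and Gpr21 in Rabgap1 on the same strand. Cask had a read in 98.7% of nuclei, Med12l in 96.8%, Ubac2 in 95.9% and Rabgap1 in 97.2%. The largest exon overlaps were 41.6% for Gpr25 with Gm26781 and 39.9% for Gpr39 with Lypd1, both on opposite strands. Gpr39 had a read in 53.7% of nuclei with and 42.3% of those without Lypd1. Since the use of strand in counting is not given, the values of these members are uncertain to that extent. For Gpr21 and Rabgap1, on the same strand, a use of strand could not separate the reads.

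Promoters were available for 49 of the 69 members. The number of CpGs had a median of 17.5 for the 6 ubiquitous, 11 for 23 intermediate and 5 for 20 selective members, against 13 for 18936 other genes, counting the start with the most CpGs. The Spearman correlation of share with CpG number was 0.36 over the 49 members and 0.61 over the other genes. On either strand, GGGCGG was found in 44.9% of member promoters and 46.4% of others, TATAAA in 12.2% and 12.4%, CCAAT in 38.8% and 37.7%, TGACTCA in 6.12% and 4.64%, and TGACGTCA in 2.04% and 2.37%. Of the 4 promoters printed above, TATAAA occurs in Gpr22 and Gpr83, CCAAT in Gpr22, and GGGCGG in Gpr158 and Gpr153. These are matches of letters and not binding sites.

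Set beside other lists, the Gpr-named genes were less widespread than their signalling partners. Of 27 adhesion receptor genes (Adgr symbols), 8 were ubiquitous, 15 intermediate and 4 selective, with a median share of 49.7%. Of the 39 G protein, arrestin, kinase, cyclase and regulator genes, 26 were ubiquitous, with a median share of 90.5%. Gnaq had a read in 99.7% of nuclei and Gnao1 in 99.4%. These are descriptions of 3 lists within the same nuclei.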

How the data were processed

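Single-nucleus Smart-seq2 libraries of 383 nuclei were analysed as 1 sample. The deposited table holds read counts per gene, not normalised, per the file headers and the values, which were all whole numbers. The submitters' processing notes name bcl2fastq, STAR, Picard, edgeR, Seurat 3 and GRCm38 without roles. The annotation, counting mode and use of strand are not given in the sources used here. The members and lists were chosen with earlier results of these data known.

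Nuclei with at least 1000 genes with a read were kept, and a gene counted as detected from 1 read. Counts were divided by the nucleus total (RPM), and for comparisons each nucleus was thinned to 500000 reads. Leiden clusters (2000 variable genes, 15 components, 10 neighbours, resolution 1; at least 8 nuclei to be compared) were built without the members and 39 signalling genes, with Python 3.11.15, numpy 2.4.6, pandas 2.3.3, scipy 1.17.1, scanpy 1.11.5 and igraph 0.11.9. A cluster was motor-like where the mean share of cholinergic markers exceeded that of every other cell type's list, and visceral or somatic by the larger mean, with at least 3 markers present in 10% of its nuclei, a limit set after seeing the data. Each well held 1 nucleus, and no doublet caller was run. No p-values were computed. The scripts were tested on simulated data. A few members are counted but not reported here by name.

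Every member could be named with its share. Full values were planned for the 10 with the highest shares, for the most concentrated ones found in at least 5 nuclei, for called members and for their relatives. For some of these only part of the values is printed. Gene spans came from GENCODE M21 and promoters from RefSeq (GRCm38.p6). Alternatives tried were other limits, read and gene minimums, no thinning, a mitochondrial limit and other cluster settings.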

Additional observations from a re-analysis of the deposited data

Results flagged for a closer look

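Gpr158 reads appeared in 11 of the 67 nuclei left out by the filter (16.4%), which were used in no comparison and had a median of 2328 reads, above the floor of 3 nuclei. Of the 69 members, 9 had a read in any of these nuclei.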

How the results depend on the processing

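Of the counts and medians recomputed under alternatives, 54 stayed close and 17 moved. Of the values of single members, 112 stayed close and 43 moved. Counts, medians and shares have no sign, so they could not reverse. Only the somatic minus visceral differences in share and the log2 level ratios could, and none of these changed sign. With at least 5 reads, 3 members were ubiquitous, 1 was not detected, the median share was 12.7%, 1 member (Gpr22) was higher in somatic motor-like nuclei and 7 differed between visceral clusters, against 12.7% of all genes. Without a filter on nuclei 1 member was ubiquitous, and with limits of 90% and 10%, 3 were. After thinning the median share was 17.6%. With a difference of at least 25 points, 4 members were higher and 2 lower in somatic motor-like nuclei, 19 differed between clusters, against 21.9% of all genes, and 2 differed by Cck (Gpr146, Gpr149; the Cck split was added after seeing the data). With nuclei of at least 2000 genes, 1 member (Gpr83) was higher and 0 were lower in 24 somatic motor-like nuclei. With 20 neighbours 7 members differed between clusters (11.2% of all genes), at resolution 0.5 it was 6 (7.85%), and without cluster 5, chosen after seeing the data, 6 (10.9%). Requiring markers in 20% of a cluster's nuclei, also chosen afterwards, left a cluster of 21 nuclei unnamed and changed no class call. Counts of 1 to 4 reads and 22 somatic motor-like nuclei limit the precision. No paired analysis was possible because there is a single group and the numbers in the labels only name nuclei.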
